A study of Mus musculus with 16 samples.

Results

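The effect of Akti1/2 on gene expression was examined in D10 T cells after 12 h of stimulation through CD3 and CD28, by setting cells that had received the inhibitor against cells that had not. Akti1/2 is an allosteric inhibitor of the kinases Akt1 and Akt2, and D10 is a murine Th2 cell line that derives from a single helper T cell clone and is kept in IL-2. Both groups were stimulated with biotinylated antibodies to CD3 and CD28 joined by streptavidin for 12 h. The Akti1/2 group was first incubated with 10 µM of the inhibitor for 1 h, and the control cells are untreated by the labels but received solvent by the study's text, so whether they had the vehicle is not settled here. Each group consisted of 2 Illumina MouseRefSeq8 arrays, 4 of the 16 arrays of a time course that also covered 0, 2 and 6 h. The sources used here do not say that the 2 arrays of a group came from separate cultures, so p-values measure the spread between these arrays, which may be technical. All gene entries above the negative controls on at least 2 of the 16 arrays were compared, which was 7395 of the 18138 on the array.

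Akt is activated downstream of PI3K when the antigen receptor and CD28 are engaged. It phosphorylates FOXO transcription factors, which are then kept out of the nucleus and cease to drive genes of quiescence and cell cycle arrest, and it promotes mTORC1 activity, which supports the synthesis of ribosomes, nucleotides, lipids and protein. In Th2 cells the same costimulatory signals contribute to the transcription of IL-4, IL-5 and IL-13, the cytokines that define the lineage. ATF4 and CHOP, the latter encoded by Ddit3, are the transcription factors of the integrated stress response, which is set off when amino acids run short or when proteins fold poorly in the endoplasmic reticulum.

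The 4 arrays were alike in the number of genes above background, 6359 to 6719 on each. Their median intensities lay between 135.6 and 146.1, near the means of the negative controls (126.5 to 135.6). Mean intensities differed by chip. They were 478.5 and 443.9 for control replicate 1 and Akti1/2 replicate 2 on 1 chip. On the other they were 532.8 and 528.2 for control replicate 2 and Akti1/2 replicate 1. Replicate arrays correlated at 0.9936 (control) and 0.9929 (Akti1/2) over the genes tested, against 0.9352 to 0.9448 across the groups. Markers of helper T cells (Cd3d, Cd3e, Cd4, Gata3, Il4 and 9 others) were above background on all 4 arrays for 14 of 14 genes. Of the 8 Th1, Th17 and regulatory T cell markers on the array, 0 were above background, and the other lists had few: Prf1 of 8 cytotoxic and NK markers, Cd74 of 11 B cell markers, Cd68 of 15 macrophage and dendritic cell markers, Mpo, Mcpt8 and Tpsab1 of 13 granulocyte and mast cell markers, Hba-a1 and Epor of 10 erythroid and platelet markers, and Pecam1 of 12 fibroblast and endothelial markers. Of these markers of other cells, 2 rose with Akti1/2, Cd68 by 1.42 (log2) and Pecam1 by 0.57, and 4 fell, with log2 differences of -2.10 for Hba-a1, -1.5997 for Mcpt8, -0.77 for Cd74 and -0.33 for Mpo. The summed intensity of the erythroid list was 2106 and 2236 in controls and 1637 and 1530 with Akti1/2, that of the B cell list 2005 and 2225 against 1909 and 1658, that of the granulocyte list 2004 and 2035 against 1981 and 1809, and that of the macrophage list 2021 and 2118 against 2187 and 2031. Their part in other results was not tested. In a bulk RNA sample, fewer cells that express a gene and less RNA of it per cell cannot be told apart.

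Akti1/2-treated and control cells differed widely at 12 h. Throughout, a gene that rose or fell was higher or lower with Akti1/2 than in controls at 12 h. This does not say that its level moved over time in the Akti1/2 group. By limma with Benjamini-Hochberg adjustment, 1786 genes were higher with Akti1/2 (24.2% of those tested) and 1834 were lower (24.8%), 49.0% in all. All of these had groups that did not overlap and hence the same direction on each of the 2 chips. The calls rest on the same 4 arrays, so this is not separate support for them. The median difference over all genes tested was -0.02 on the log2 scale. The normalization makes the distributions equal across arrays, which favours a median near 0 and a balanced split. With arrays scaled to the same mean instead, 1959 genes were higher and 1639 lower. By size, 488 genes rose by 2-fold or more (6.6% of those tested) and 440 fell by as much (5.95%), and beyond 4-fold there were 73 rises and 27 falls. Of the 928 genes beyond 2-fold, 730 were above background on all 4 arrays, 97 on no control array and 57 on no Akti1/2 array. Counts in the gene lists below are to be read against 24.2% higher and 24.8% lower over all genes tested.

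**Figure D1:**
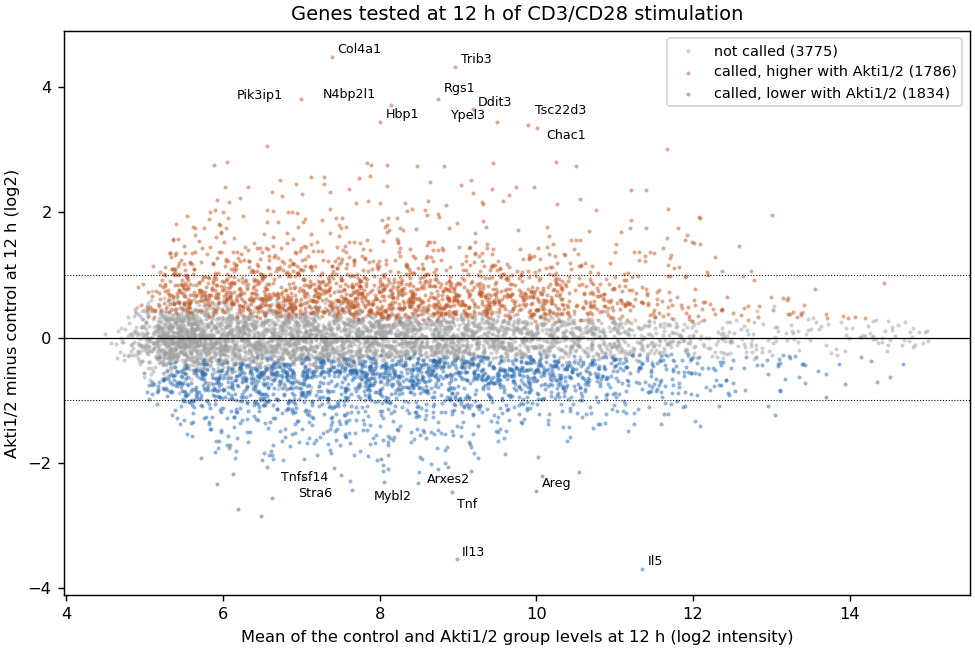
Each point is 1 of the 7395 genes tested, with the mean of the group levels at 12 h on the horizontal axis (log2 intensity) and the difference Akti1/2 minus control on the vertical axis (log2), dotted lines marking 2-fold. Called genes lie on both sides (1786 above and 1834 below), a balance that the normalization favours, with Trib3 and Il5 among the genes farthest from 0. Col4a1 and Pik3ip1, also labelled, were not above background on any control array.

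Trib3, Rgs1, N4bp2l1 and Ddit3 had the largest rises among genes above background on all 4 arrays. Trib3, a pseudokinase known as an inhibitor of Akt and a target of CHOP, measured 6.997 and 6.614 (log2 intensity) on the control arrays and 11.12 and 11.14 with Akti1/2. This was a 19.99-fold higher level (log2 difference 4.32, standard error 0.13, adjusted p = 4.90e-10, limma). Rgs1, which shortens signals from chemokine receptors, rose from 6.81 and 6.88 to 10.62 and 10.69. Mean Rgs1 was 8.32 at 0 h and 6.84 at 12 h in controls, and 10.71 and 10.65 with Akti1/2. Ddit3 rose from 7.46 and 7.27 to 11.03 and 10.996, a 12.5-fold difference. In these 3 genes the arrays of a group lay close together and the groups far apart. N4bp2l1 rose by 3.72 (log2), Hbp1, a repressor of cell cycle genes, by 3.45, and Ypel3, which is linked to growth arrest, by 3.44. Tsc22d3, which encodes the glucocorticoid-induced leucine zipper protein GILZ and is a FOXO target in lymphocytes, rose by 3.39, and Chac1, a glutathione-degrading enzyme induced by ATF4, by 3.35. Standard errors of these 8 differences were between 0.10 and 0.18.

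2 further genes with rises of this size had control arrays at background, so only a lower bound can be given. Col4a1, which encodes a collagen IV chain and was picked out here after its values were seen, was at least 15.1-fold higher with Akti1/2. Pik3ip1, an inhibitor of PI3K at the plasma membrane, was at least 9.14-fold higher.

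The largest falls were in Th2 cytokine genes. Il5, the cytokine that supports eosinophils, measured 13.32 and 13.08 in controls and 9.22 and 9.78 with Akti1/2, and was 13.0-fold lower (log2 difference -3.70, standard error 0.26, adjusted p = 4.36e-07, limma). Il13, which acts on epithelium and mucus production, measured 10.89 and 10.62 in controls against 6.54 and 7.88 (log2 difference -3.55, standard error 0.43). The Akti1/2 arrays of both genes lay below both control arrays, and replicate 1 was the lower of the pair. Tnf fell by 2.46, Areg, a growth factor of the EGF family, by 2.45, and Tnfsf14, the ligand LIGHT, by 2.30. Mybl2, the B-Myb transcription factor of proliferating cells, fell by 2.30 from 9.26 and 9.16 to 6.79 and 7.02. Stra6, a retinol transporter, and Arxes2 fell by 2.44 and 2.32.

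Members of the cytokine list showed how the falls were distributed. Of 45 cytokine genes in the list, 22 were tested: 17 fell, 5 rose, and the median difference was -1.22 against -0.02 over all genes tested. Those that fell included the growth factor Csf2 (GM-CSF), with 11.56 and 11.67 in controls and 9.11 and 9.83 with Akti1/2. Il3, a mast cell and basophil growth factor, stood at 12.81 and 12.76 against 11.06 and 11.70, and fell by 1.41. Il6 fell by 1.94 (standard error 0.42). Among the 7 ligands of the TNF superfamily in the list, 6 fell (Tnf, Tnfsf9, Tnfsf14, Tnfsf11, Lta and Tnfsf10) and Ltb rose by 0.52. Tnfsf9, the ligand of 4-1BB, was above background on no Akti1/2 array and was at least 4.97-fold lower. Over the 22 genes, the level on Akti1/2 replicate 2 was above that on replicate 1 in 15, by a median of 0.24, while over all genes tested this median was -0.01. The median difference of the list was -1.41 on the chip that held Akti1/2 replicate 1 and -1.13 on the chip that held replicate 2.

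Il4, the cytokine that sustains Th2 identity, went the other way from Il5 and Il13. It measured 11.24 and 11.19 in controls and 12.31 and 12.09 with Akti1/2, and was 1.98-fold higher (log2 difference 0.99, standard error 0.14, adjusted p = 9.34e-05, limma). The groups did not overlap. Il16, a ligand of CD4, rose by 1.91, Csf1 by 1.08 and Vegfa by 0.83. Il10, an inhibitory cytokine, measured 11.83 and 11.11 in controls and 10.995 and 10.83 with Akti1/2, a difference of -0.56 (adjusted p = 0.0465, limma) that was not called with the chip as a block (adjusted p = 0.0553), with only the 4 arrays at 12 h (adjusted p = 0.0894) or with no filter on low values (adjusted p = 0.098). Without control replicate 1 the difference of Il10 was -0.20 (adjusted p = 0.479), and without replicate 1 or 2 of the Akti1/2 arrays it was -0.64 (adjusted p = 0.0844) or -0.47 (adjusted p = 0.189). Gata3, the lineage-defining transcription factor, stood at 12.49 and 12.53 against 12.46 and 12.41, a difference of -0.08 that did not pass the test (standard error 0.12, adjusted p = 0.629).

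**Figure D2:**
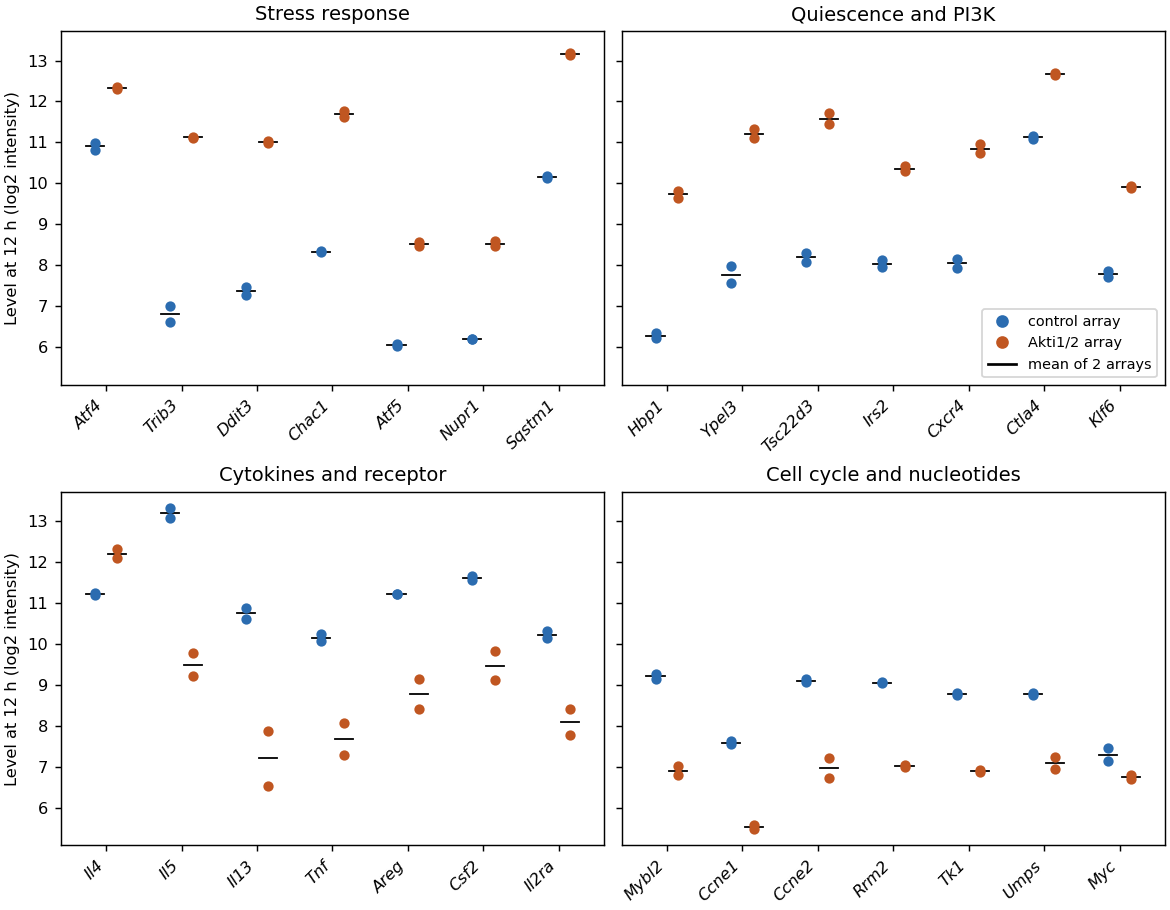
Levels at 12 h (log2 intensity, vertical axis) of 28 genes on each of the 2 control and 2 Akti1/2 arrays, with a bar at the mean of each pair. The pairs do not overlap between the groups for the genes shown, as in all genes called. The 2 Akti1/2 arrays lie apart for several cytokine genes, such as Tnf (7.30 and 8.08), and most at Il13 (6.54 and 7.88). The separation of the groups is narrowest at Myc.

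Of 9 chemokine genes tested, 4 were called (44.4%, against 49.0% of all genes tested). Of these, Ccl1, a ligand of the Th2 receptor CCR8, fell from 11.86 and 11.98 to 10.12 and 10.72 and Xcl1 was at least 1.47-fold lower, while Ccl17 and Ccl3 rose by 1.08 and 1.04, and the other 5 did not pass the test, among them Ccl4 with a difference of -0.19. The largest fall among 27 cytokine receptors and their feedback regulators was that of Il2ra, which encodes the high-affinity subunit CD25 of the IL-2 receptor: 10.31 and 10.15 in controls and 7.78 and 8.42 with Akti1/2. Socs3, an inhibitor of cytokine signalling, fell by 1.63, and Ifngr1 rose by 1.75. In this list 11 genes rose, 9 fell and 7 did not pass (74.1% called).

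Of 22 costimulatory and checkpoint receptors tested, which dampen or sustain T cell activation, 9 rose, 4 fell and 9 did not pass, against 24.2% higher and 24.8% lower over all genes tested, and the list median was 0.28. Ctla4, the inhibitory receptor for B7 ligands, rose from 11.16 and 11.08 to 12.65 and 12.70 (log2 difference 1.55), and Cd28, its activating counterpart, from 9.85 and 9.71 to 11.37 and 11.01 (1.41). Lag3 rose by 1.13, Cd69 by 1.02 and Cd274, which encodes PD-L1, by 0.90. Cd160 was the exception in size, above background on no Akti1/2 array and at least 4.95-fold lower. Of 15 homing receptors and chemokine receptor regulators tested, 6 rose, 0 fell and 9 did not pass. Cxcr4, the receptor for CXCL12, measured 8.16 and 7.94 in controls and 10.96 and 10.73 with Akti1/2, a 6.93-fold difference, and Ccr7, the lymph node homing receptor, rose by 1.37.

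Of 34 genes of proximal T cell receptor signalling tested, 8 rose, 8 fell and 18 did not pass, which is 47.1% called against 49.0% of all genes tested, and the list median was 0.04. Dok2, an adaptor that restrains receptor signalling, fell by 1.23 and the phosphatase gene Ptpn22 rose by 1.07. Malt1, part of the complex that links the receptor to NF-kB, had a difference of 1.18 that was lost without control replicate 1 (0.96, adjusted p = 0.139) and without Akti1/2 replicate 2 (0.95, adjusted p = 0.139). Among 38 NF-kB subunits, inhibitors and targets, 11 rose and 13 fell (63.2% called). The subunit gene Relb rose by 1.52 and the inhibitor Tnfaip3 by 1.07, while Ebi3, which encodes a subunit of IL-27 and IL-35, was at least 2.75-fold lower. Ier3, a stress-inducible target of NF-kB, measured 13.70 and 13.31 in controls and 12.56 and 12.25 with Akti1/2 and fell by 1.10. Bcl2a1c and Bcl2a1d belong to a family of near-identical copies whose signals cannot be assigned with certainty.

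Of 26 immediate early and AP-1 genes, 9 rose and 9 fell (69.2% called), and of the 8 dual specificity phosphatases among them 3 rose and 4 fell. Dusp1 rose by 2.18 and Dusp4 by 2.17, whereas Dusp2 fell by 1.66 and Dusp7 by 1.49. These enzymes switch off MAP kinases. Klf6, a Krüppel-like factor and FOXO target, measured 7.86 and 7.72 in controls and 9.94 and 9.88 with Akti1/2. Mean Klf6 was 9.81 at 0 h and 7.79 at 12 h in controls, and 10.15 and 9.91 with Akti1/2. Myc, which drives growth, measured 7.47 and 7.14 in controls and 6.70 and 6.80 with Akti1/2, and its difference of -0.55 (adjusted p = 0.0256, limma) no longer passed when all arrays were scaled to the same mean (-0.44, adjusted p = 0.0662), without control replicate 1 (-0.39, adjusted p = 0.192), or without replicate 1 (-0.50, adjusted p = 0.116) or 2 (-0.60, adjusted p = 0.0624) of the Akti1/2 arrays. Of 25 helper T cell lineage factors, 12 rose, 4 fell and 9 did not pass (64.0% called, against 49.0% of all genes tested). Cebpb rose by 2.35, the chromatin organiser Satb1 by 1.76 and Bach2, a repressor of effector differentiation, by 1.61, while Zbtb32, Id2, Stat5a and Irf8 fell by 1.54, 1.40, 1.28 and 1.12.

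Of 37 FOXO and quiescence genes tested, 24 rose, 16 of them by 2-fold or more, 10 did not pass and 3 fell (Cdkn2d, Sod2 and Homer1), with a list median of 0.79 against -0.02 over all genes tested. Tsc22d3, Pik3ip1 and Cxcr4, described above, had the largest differences. Trp53inp1, a regulator of autophagy and cell death, rose from 6.21 and 6.69 to 9.11 and 9.36. Irs2, an adaptor that couples insulin and cytokine receptors to PI3K, rose from 8.13 and 7.95 to 10.29 and 10.42. Mxd4, a MAX partner that opposes MYC, rose by 2.25, Bbc3, which encodes the cell death inducer PUMA, by 2.15, and Btg1, an antiproliferative gene, by 1.96. Foxo1 itself measured 8.00 and 7.67 in controls and 8.67 and 8.29 with Akti1/2, a rise of 0.65 that was not called without control replicate 2 (0.48, adjusted p = 0.0526) or without Akti1/2 replicate 1 (0.46, adjusted p = 0.0563). Foxo3, Klf2 and Cdkn1b, classic members of this network, did not reach the detection filter.

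The kinase targets Akt1 and Akt2 did not reach it either, so their transcripts could not be compared. Over 50 genes of PI3K, Akt and mTOR signalling, 23 rose, 6 fell, 21 did not pass and the median was 0.33. Besides Trib3, Pik3ip1 and Irs2, those that rose included Sesn2, a sensor of leucine, which was at least 2.21-fold higher, Flcn (1.77) and Fnip1 (1.40), which act together on the RAG GTPases, Ddit4 (1.63), an mTORC1 inhibitor, Eif4ebp1 (1.52), the translational repressor, and Tsc1 (1.43). The falls were led by Castor1, an arginine sensor (-1.13), and Eif4e, the cap-binding factor (-0.73).

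For the largest rises, the start sites listed by RefSeq were searched for GTAAACA, the core of the FOXO binding motif, on both strands in 300 bases (250 before to 50 after the start). Among the 8 genes with the largest rises, 7 had 9 promoters in the table and 2 of these held the motif, that of Hbp1 149 bases before and that of Ypel3 25 bases after the start. Of all 32851 promoters, 3.65% held it, and of those of the genes tested, 2.34%. Of the 11 promoters of the 8 largest falls, 0 held GTAAACA. The set of largest rises was chosen by its rise, and a match describes these letters only. The sequences are shown 5′ to 3′ on the strand of the gene in GRCm38.p6, with the match in capitals, Hbp1 at chr12:31950361-31950420 (minus strand) and Ypel3 at chr7:126776977-126777006 (plus strand).
Hbp1: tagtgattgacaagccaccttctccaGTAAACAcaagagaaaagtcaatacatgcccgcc
Ypel3: ctggtctcggtGTAAACAagtcgaggcggc

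The integrated stress response had the highest median of the 34 lists. Of 32 genes tested, 29 rose, 20 of them by 2-fold or more, and the median difference was 1.40. Eif2ak2, which encodes the kinase PKR, fell by 0.57, and Eif2ak1 (0.32) and Tnfrsf10b (-0.47) did not pass. Atf4 itself measured 10.99 and 10.82 in controls and 12.30 and 12.36 with Akti1/2 (log2 difference 1.43, standard error 0.12, adjusted p = 1.47e-06, limma). Atf5 rose from 6.09 and 6.04 to 8.57 and 8.48, and Nupr1, a stress-inducible cofactor, from 6.20 and 6.19 to 8.58 and 8.47. Ppp1r15a, which encodes the phosphatase subunit GADD34 that ends the response, rose by 2.44. Among enzymes of the list, Gpt2, an alanine transaminase, rose by 2.15, Asns, asparagine synthetase, by 1.36, and Psat1 and Phgdh of serine synthesis by 0.57 and 0.60, beside Chac1 given above. The list shares 4 genes with the PI3K list, 2 with the FOXO list and 1 with the transporter list.

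Promoters of 23 genes known to respond to ATF4 or CHOP were searched for TGATGNAA, the core of the C/EBP-ATF element that these factors bind. In the RefSeq table, 20 of the 23 genes had 24 promoters, of which 8 (33.3%), 1 each of Aars, Asns, Atf3, Chac1, Gars, Jdp2, Nupr1 and Trib3, held the motif on either strand. It was present in 3.97% of all 32851 promoters and in 2.29% of those of the genes tested. Of the 9 promoters of the largest rises, 2 held it, those of Chac1 and Trib3, and of the 11 of the largest falls 0 did. The genes of the list were gathered as known responders, some of them through this element, so the share is a description of the list. Matches are shown for the 6 of these 8 genes that rose most at 12 h, by 1.36 to 4.32. All are written 5′ to 3′ on the strand of the gene in GRCm38.p6 with the match in capitals. A match on the opposite strand reads TTNCATCA. Chac1 is at chr2:119351023-119351082 (plus), Nupr1 at chr7:126625547-126625606 (minus), Atf3 at chr1:191183410-191183469 (minus), Trib3 at chr2:152344028-152344057 (minus), Jdp2 at chr12:85599372-85599401 (plus) and Asns at chr6:7693214-7693243 (minus). The matches begin 193, 110 and 110 bases before the start in Chac1, Nupr1 and Atf3, 33 and 23 bases before it in Jdp2 and Asns and 14 bases after it in Trib3.
Chac1: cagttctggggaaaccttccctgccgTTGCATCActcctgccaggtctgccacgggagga
Nupr1: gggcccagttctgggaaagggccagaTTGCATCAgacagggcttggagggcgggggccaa
Atf3: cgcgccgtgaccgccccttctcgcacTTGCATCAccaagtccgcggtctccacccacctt
Trib3: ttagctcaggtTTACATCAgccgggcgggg
Jdp2: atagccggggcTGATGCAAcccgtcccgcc
Asns: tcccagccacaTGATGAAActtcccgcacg

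Aminoacyl-tRNA synthetases load amino acids onto transfer RNAs in the cytosol and in mitochondria. Of 18 cytosolic synthetases tested, 11 rose, led by Sars (1.30) and Aars (1.13), and 1 fell (Kars, -0.54). Of 8 mitochondrial synthetases, 1 rose (Fars2, 0.72) and 2 fell (Mars2, -1.08, and Rars2, -0.85). In the whole list of 29 genes 62.1% were called, against 49.0% of all genes tested. Among 14 amino acid transporters, 6 rose and 4 fell (71.4% called). Slc1a4 and Slc6a9, which carry neutral amino acids and glycine, rose by 2.45 and 2.43, Slc38a7 was at least 4.21-fold higher, and Slc6a6 and Slc7a8 each fell by 1.23.

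Of 34 genes of the endoplasmic reticulum and unfolded protein response, 13 rose, 3 fell and 18 did not pass. This was 47.1% called, close to the 49.0% of all genes tested. Herpud1, a component of protein degradation at that membrane, rose from 11.04 and 11.19 to 13.05 and 13.03, and Xbp1, the transcription factor of the unfolded protein response, from 11.37 and 11.09 to 12.79 and 12.72. Hspa5, the chaperone BiP, had a difference of 0.34 that did not pass. Of 33 cytosolic chaperones, 19 fell, 12 did not pass and 2 rose, with a list median of -0.52. These included Ahsa1 (-1.27), a cofactor of HSP90, Hsp90ab1 (-0.89) and 5 of the 8 subunits of the chaperonin CCT.

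Of 75 lysosome and autophagy genes tested, 36 rose, 34 did not pass and 5 fell, with a list median of 0.38. This was 54.7% called, against 49.0% of all genes tested. Sqstm1, the autophagy receptor p62, had the largest difference, from 10.14 and 10.18 in controls to 13.20 and 13.14 with Akti1/2, an 8.06-fold rise. Of 24 autophagy genes, 15 rose and 0 fell, among them Map1lc3b (1.28), Ulk1 (1.11) and Optn (1.40). Of 16 subunits and accessory proteins of the vacuolar ATPase, 6 rose, led by Atp6v0d1 (1.55), and 1 fell. Gusb, a lysosomal hydrolase often used as a reference gene, fell by 2.10, from 9.86 and 9.74 to 7.49 and 7.91.

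**Figure D3:**
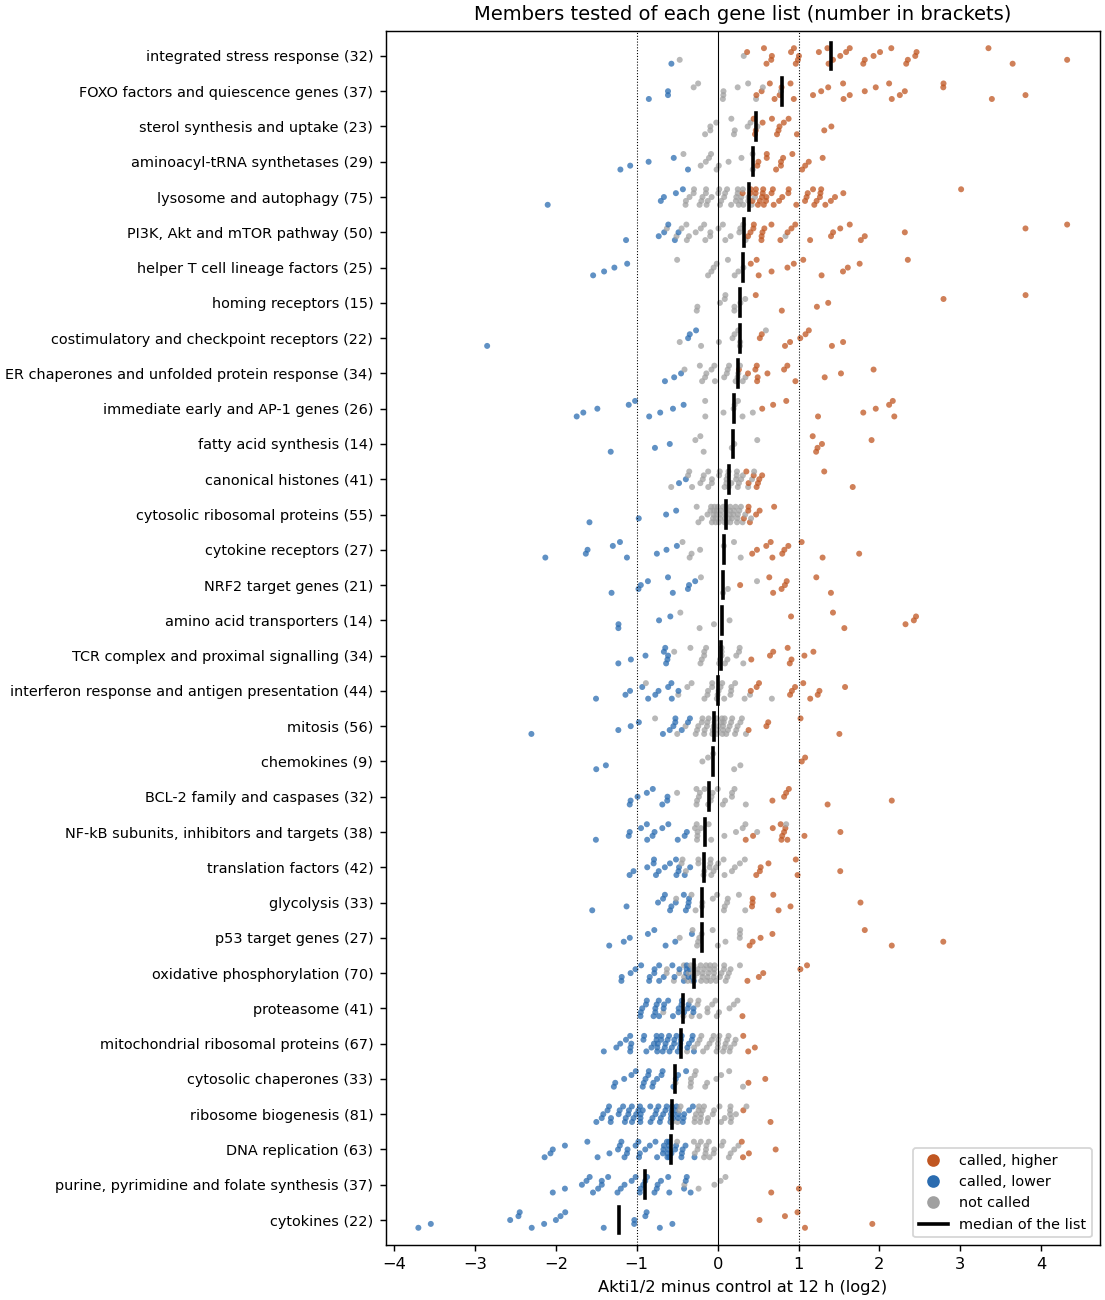
Difference between Akti1/2 and control at 12 h (log2, horizontal axis) for the tested members of 34 gene lists, each row 1 list with its number tested and each point 1 gene, vertical dotted lines marking 2-fold. The black bars are list medians, from 1.40 for the integrated stress response to -1.22 for cytokines. Medians near 0 occur in lists with few calls, such as mitosis (30.4% called), and in lists with calls in both directions, such as NRF2 targets (81.0%).

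Of 37 genes of purine, pyrimidine and folate synthesis, which make nucleotides, 30 fell, 15 of them by 2-fold or more, 5 did not pass and 2 rose. Rrm2, the regulated subunit of ribonucleotide reductase, measured 9.05 and 9.07 in controls and 6.99 and 7.05 with Akti1/2 (log2 difference -2.04, standard error 0.10, adjusted p = 4.91e-08, limma). Thymidine kinase Tk1 fell from 8.76 and 8.81 to 6.91 and 6.89. Umps and Dhodh of pyrimidine synthesis fell by 1.68 and 1.62, and Gart and Ppat of purine synthesis by 1.58 and 1.54. The 2 that rose were the mitochondrial folate enzymes Shmt2 (1.01) and Mthfd2 (0.66), both of which are also in the stress response list, whereas the cytosolic Shmt1 and Mthfd1 fell by 1.48 and 1.35.

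Of 63 DNA replication genes, which act at entry into and passage through S phase, 39 fell, 14 by 2-fold or more, 20 did not pass and 4 rose, and the median was -0.57. Ccne1, the cyclin E1 gene, measured 7.56 and 7.62 in controls and 5.57 and 5.48 with Akti1/2, where only 1 array was above background. Ccne2 fell by 2.14 and Ccnd3 by 1.61. Ccnd2 measured 9.22 and 9.23 against 8.65 and 8.60, and its difference of -0.60 (adjusted p = 0.0480, limma) was not called when any 1 of the 4 arrays was left out (adjusted p between 0.120 and 0.149) or with arrays scaled to the same mean (-0.55, adjusted p = 0.0529). The licensing factor Cdc6 and the S phase transcription factor E2f1 fell by 1.21 and 1.12, and of the 6 subunits of the MCM2 to MCM7 helicase 4 fell, Mcm6 furthest at -0.61. In the mitosis list, 12 of 56 fell, 5 rose and 39 did not pass, with a median of -0.04. This was 30.4% called, against 49.0% of all genes tested. Mybl2 and Pbk (-1.23) fell furthest and Ndc80, a kinetochore subunit, rose by 1.51. Cdkn1a, the p21 inhibitor of cyclin-dependent kinases, fell by 1.34.

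Of 81 ribosome biogenesis genes, 51 fell, 18 by 2-fold or more, 28 did not pass and 2 rose (median -0.56), with Rrp9 (-1.50), Rrp1b (-1.43) and Bop1 (-1.41), all acting on ribosomal RNA precursors, at the lower end. The nucleolar proteins Ncl (-0.21) and Npm1 (0.04) did not pass. Of 67 mitochondrial ribosomal protein genes, 40 fell, 24 did not pass and 3 rose (median -0.45), and of 41 proteasome genes 24 fell, none by 2-fold, 16 did not pass and 1 rose (median -0.42). For cytosolic ribosomal proteins, 44 of 55 genes did not pass, 7 rose and 4 fell, with a median of 0.10. Rps27a, which encodes a ubiquitin fusion, had the largest difference of these, from 11.15 and 11.30 to 9.47 and 9.80. Ribosomal protein genes have many near-identical processed copies, and such probes may not be specific. Of 42 translation factors, 15 fell, 7 rose and 20 did not pass (52.4% called), and of 70 oxidative phosphorylation genes 23 fell, 5 rose and 42 did not pass.

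Of 23 genes of sterol synthesis and uptake, 13 rose, 0 fell and 10 did not pass (median 0.47), with Mvd (1.41), Srebf2 (1.32), the master regulator of the pathway, and Fdps (0.98) highest. Of 14 fatty acid genes 5 rose, among them Acss2 (1.90), 3 fell, among them Elovl6 (-1.32), and 6 did not pass. Of 33 glycolysis and hypoxia genes, 13 fell, 7 rose and 13 did not pass (60.6% called). Eno3 fell by 1.55 and the prolyl hydroxylase gene Egln3 by 1.13, while the glucose transporter Slc2a6 rose by 1.77, and Gapdh differed by -0.19, which did not pass.

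The remaining lists are read against 49.0% called over all genes tested, 24.2% higher and 24.8% lower. Of 32 BCL-2 family and caspase genes, 6 rose and 8 fell (43.8% called), with Bcl2l1, which encodes the survival protein BCL-XL, at -1.09 and Casp4 at 1.36. Of 27 p53 targets, 7 rose and 8 fell (55.6%). Of 44 interferon response and antigen presentation genes, 11 rose and 11 fell (50.0%), shares close to those over all genes, with Gbp2 at least 1.41-fold higher and Lgals3bp lower by a log2 difference of -1.503. Of 21 NRF2 targets, 8 rose and 9 fell (81.0%), and NRF2 itself (Nfe2l2) rose by 1.22. Of 41 canonical histone genes, 9 rose, 2 fell and 30 did not pass. H1f2 was higher with Akti1/2 by 1.67, and its mean went from 12.13 at 0 h to 8.38 at 12 h in controls. With Akti1/2 the mean of H1f2 was 12.30 and 10.05. The difference of H4c18 (0.55) was not called without either control array or without Akti1/2 replicate 1. Histone genes are near-identical copies, so their probes may share signal.

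How much of the 12 h pattern was already present earlier was examined with the differences at 0, 2 and 6 h, which rest on other arrays of the same fit. Before stimulation only 4 genes were called, Chac1, Ddit3, Rgs1 and Dusp2, all in the direction seen at 12 h. Of the 3620 genes called at 12 h, 1027 were called in the same direction and 206 in the opposite direction at 2 h, when 2103 genes were called, and 2134 in the same and 26 in the opposite direction at 6 h, when 2776 were. The 361 genes beyond 2-fold in the same direction at 6 and 12 h were a part of 550 such genes at 6 h and 928 at 12 h.

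The change of the difference between 6 and 12 h was tested directly. It passed for 438 genes (5.92% of those tested), 222 towards higher and 216 towards lower values with Akti1/2. This count was 178 and 146 without replicate 1 or 2 of the control arrays and 137 and 265 without replicate 1 or 2 of the Akti1/2 arrays. Against 0 h, the difference had changed in 2400 genes (32.5%), 1205 towards higher values. With arrays scaled to the same mean this split was 1478 higher and 961 lower.

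DNA replication genes were the list with the most such changes, 18 of 63 towards lower values and 0 towards higher ones. Their median difference was 0.02 at 6 h and -0.57 at 12 h. Tk1 differed by -0.36 at 6 h and by -1.89 at 12 h, Ccne1 by -0.68 and -2.07, and Cdc6 by 0.09 and -1.21. Control cells moved as well: mean Ccne1 was 7.02 at 0 h, 6.53 at 6 h and 7.59 at 12 h, and with Akti1/2 it was 6.83, 5.86 and 5.52. The gap of sterol genes narrowed, with list medians of 0.85 at 6 h and 0.47 at 12 h. Of 23 sterol genes, 6 changed towards lower and 0 towards higher values. Mvd differed by 2.67 at 6 h and by 1.41 at 12 h, and Msmo1, the sterol methyl oxidase, by 2.36 and 0.88. Mean Mvd in controls was 7.41 at 6 h and 9.09 at 12 h, and with Akti1/2 it was 10.08 and 10.49.

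Among 37 FOXO and quiescence genes, 7 changed towards higher values and 0 towards lower ones between 6 and 12 h. The same numbers held for 75 lysosome and autophagy genes and for 26 immediate early and AP-1 genes. Of 33 glycolysis and hypoxia genes, 6 changed towards higher and 1 towards lower values. Over all 7395 genes tested these counts were 222 and 216. Trp53inp1 differed by 1.08 at 6 h and by 2.79 at 12 h, and Sqstm1 by 1.31 and 3.01. Mean Trp53inp1 in controls was 8.24 at 6 h and 6.45 at 12 h, and with Akti1/2 it was 9.31 and 9.24. Pik3ip1 differed by 2.55 and 3.81 on the fitted scale, a change that did not pass (adjusted p = 0.0605, limma). The gap of Dusp4 widened late, with 0.43 at 2 h, 0.30 at 6 h and 2.17 at 12 h. That of Relb was 0.24, 0.21 and 1.52. Mean Dusp4 was 8.55 at 6 h and 8.22 at 12 h in controls, and 8.85 and 10.39 with Akti1/2. Mean Relb was 8.74 and 7.88 in controls, and 8.95 and 9.40 with Akti1/2. In contrast, the difference of Chac1 was 3.78 at 2 h, 2.56 at 6 h and 3.35 at 12 h, and that of Atf4 was 1.27, 1.27 and 1.43, without a change between 6 and 12 h that passed the test.

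Mean Il5 in controls was 8.62 at 0 h, 10.36 at 2 h, 13.00 at 6 h and 13.20 at 12 h, and with Akti1/2 it was 8.37, 7.31, 10.69 and 9.50, so that the gap between the groups was wider at 12 h than at 6 h (change -1.39, standard error 0.36, adjusted p = 0.0424, limma). Il13 reached 11.21 at 6 h and 10.76 at 12 h in controls and stayed at 7.77 and 7.21 with Akti1/2, with no change in the gap that passed. The gap of Il10 narrowed, from -1.87 at 6 h to -0.56 at 12 h. Ltb turned from -0.98 to 0.52. Of the 22 cytokines, 4 changed towards higher values and 1 towards lower ones.

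**Figure D4:**
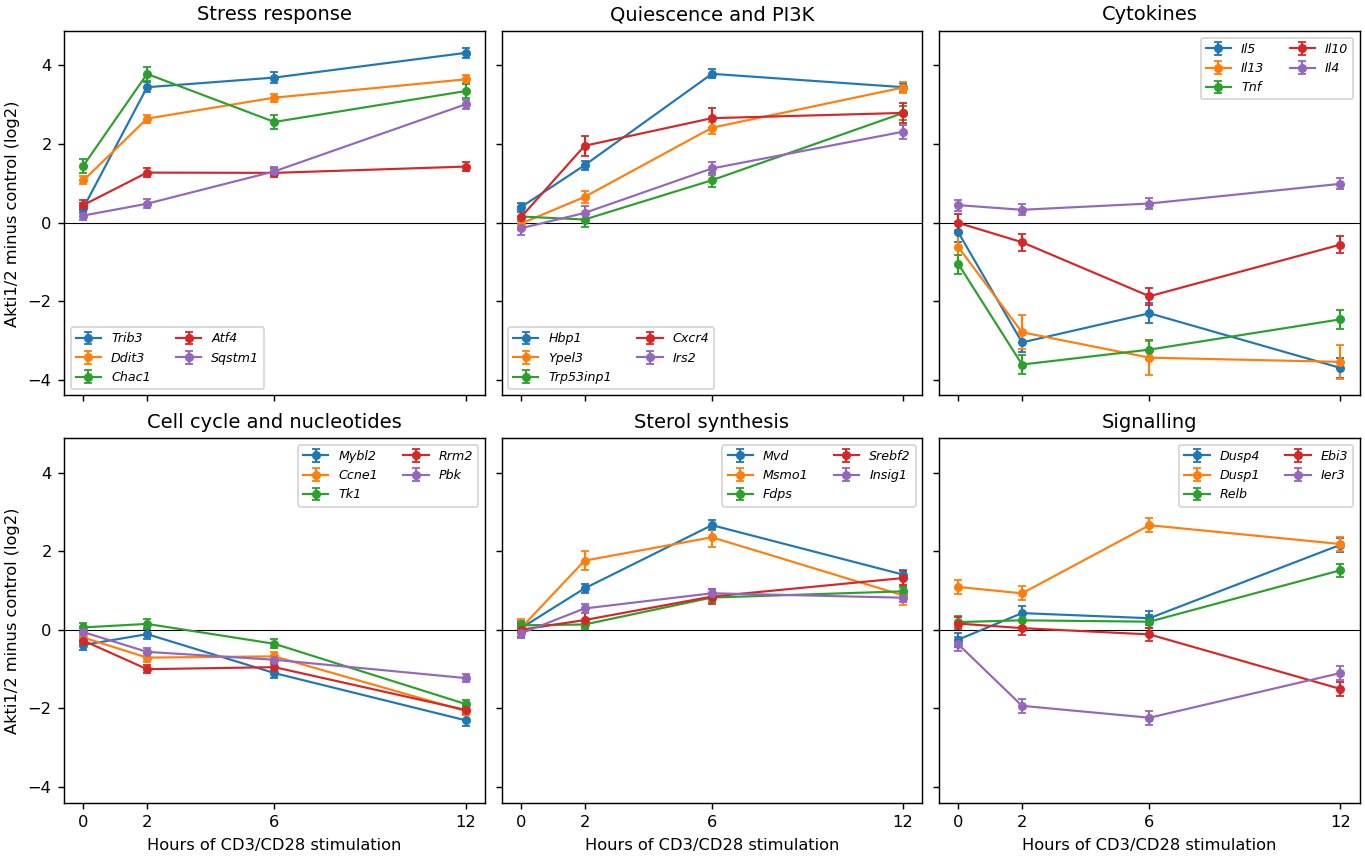
Difference between Akti1/2 and control (log2, vertical axis) at 0, 2, 6 and 12 h of CD3/CD28 stimulation (horizontal axis) for 30 genes in 6 groups, with the standard error of the limma fit as bars. The differences of stress response genes such as Chac1 (3.78 at 2 h) and Ddit3 (2.65 at 2 h) were already large at 2 h. Those of Dusp4, Relb, Tk1 and Ccne1 changed mainly between 6 and 12 h.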

How the data were processed

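D10 RNA was hybridised to Illumina MouseRefSeq8 arrays. The authors deposited non-normalized probe intensity values per gene from GenomeStudio (per the file header), with negative controls in the same table and without background correction. Here the 16 arrays were processed together by the neqc function of limma 3.58.1 (R 4.3.3), which corrects the background with 798 negative controls, adds an offset of 16, makes the distributions equal across arrays and returns log2 values. A gene was above background on an array where under 0.01 of the negative controls reached it. All 8 groups entered 1 linear model (lmFit and eBayes, 8 residual degrees of freedom), and p-values were adjusted by Benjamini-Hochberg over 7395 genes, called under 0.05. The script was tested on simulated data.

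By Entrez ID, 16590 entries matched RefSeq genes and 2818 symbols were updated. Where no array of a group was above background, a fold is a bound ("at least") from the lowest detected signals. Named genes were the 8 largest rises and falls, up to 3 called members of each list and 22 genes set by name (some not reported here), and other list members were picked as examples after their values were seen. Members and lists were chosen with earlier results of these data known. Lists hold only genes that passed the filter on low values, and 69 genes are in more than 1 list. Promoters were from RefSeq (GRCm38.p6). For sterol genes, TCACCCCAC was in 0 of 17 promoters (0.551% of all promoters) and CACGTG in 4 (7.15% of all promoters). Precision is limited by 2 arrays a group. Alternatives are given in the closing section.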

Additional observations from a re-analysis of the deposited data

Results flagged for a closer look

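The Akti1/2 difference at 12 h differed from that at 6 h, by a limma test of the change itself, in 5 genes out of the 16 largest rises and falls and the genes listed by name. The 16 were picked by their 12 h differences, which enter the change, so the choice favoured passing. N4bp2l1 differed by 2.35 at 6 h and by 3.72 at 12 h (log2), a change of 1.365 (adjusted p = 0.00175). Ypel3 differed by 2.42 and 3.44, a change of 1.024 (adjusted p = 0.0189). For both genes the level in control cells was lower at 12 h than at 6 h (6.29 against 7.12 for N4bp2l1 and 7.77 against 8.06 for Ypel3) and the level with Akti1/2 was higher. Il5 changed by -1.391 (adjusted p = 0.0424) and Mybl2 by -1.201 (adjusted p = 0.00496). Mybl2 in control cells was 8.56 at 6 h and 9.21 at 12 h, and with Akti1/2 it was 7.46 and 6.91. Il10 changed by 1.315 (adjusted p = 0.0279), and its call at 12 h was lost under 6 alternatives, as given above.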

How the results depend on the processing

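The number of genes called at 12 h was 3620, and it was 3119 to 3752 under the other settings of normalization, filter, block and samples fitted with limma, and 2777 to 2991 when any 1 of the 4 arrays was left out. The number beyond 2-fold was 928 and fell to 343 with quantile normalization without background correction and to 615 with an offset of 50 (the cause was not tested), and was 863 to 1038 with 1 array left out. The number whose difference changed from 6 to 12 h was 438, and 137 to 265 with 1 array left out. The change from 0 to 12 h was called in 1865 to 2510 genes under all settings. The study used the J5 score, a measure without an error term, to set stimulated against unstimulated cells, with a threshold chosen for each time point. Here it was applied to Akti1/2 against control at 12 h, so the counts are not those of the study. A score beyond 20, the threshold the study states for 2 h, picked 161 genes (106 higher and 55 lower) of 18138. Of these, 120 were called by limma. Same-numbered arrays at 12 h did not deviate together (correlation of deviations -0.01 over genes). With 2 arrays a group, and same-numbered arrays on different chips, this cannot settle whether the samples were paired. With the replicate block 3607 genes were called, and with the chip as a block 3625, so neither changed a count of calls by over 1.5 times. Scaling to the same mean moved the share of higher genes among those beyond 2-fold from 52.6% to 60.1%, and among all called from 49.3% to 54.4%. No direction reversed in the 1717 values of 116 named genes, but most of these values could not reverse. The groups of the 114 called ones did not overlap, which fixes the direction within a chip and without any 1 array. The filter and block settings leave the difference itself unchanged. Only the other normalizations could have reversed a called gene. Calls were lost in 26 values of 6 genes (Malt1, H4c18, Foxo1, Il10, Myc and Ccnd2), for all but Foxo1 also with no filter on low values (adjusted p between 0.0526 and 0.103), and for Il10 also with the chip block (adjusted p = 0.0553). Signal near background limits the fold of dim genes, for which only bounds are given.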

Other observations

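Most genes beyond 2-fold at 12 h were in none of the gene lists: 225 of the 928 were in at least 1 of the 34. The genes named here were chosen from the others after their values were seen. Among those that rose were genes of lipid storage. Soat2, which esterifies cholesterol, measured 7.88 and 7.92 (log2 intensity) in controls and 10.51 and 10.34 with Akti1/2, a difference of 2.52 (standard error 0.15). The lipid droplet coats Plin2 and Plin3 rose by 2.06 and 2.19. The groups did not overlap in any of the 3, as in all genes called.

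Gpnmb, a lysosomal and cell surface glycoprotein gene, rose from 8.89 and 8.79 to 11.71 and 11.60, and Btk, a kinase gene best known from B cells, from 9.17 and 9.09 to 11.73 and 12.01. The quinone reductase gene Nqo2 rose by 2.74 and Rgs9, which acts on G protein signals, by 2.57. The differences of Gpnmb, Btk, Nqo2 and Rgs9 at 6 h were 1.19, 1.99, 1.12 and 0.68. The adjusted p of the change to 12 h was 0.000805, 0.0212, 0.00133 and 0.00692 (limma). These genes were picked by their 12 h values, which enter that change, so the choice favoured passing and the 4 results are a description only.

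Among those that fell, Nkg7, a granule membrane protein gene of Th1 and cytotoxic cells, went from 11.24 and 11.12 to 8.999 and 8.95, and Phlda1 from 9.55 and 9.59 to 7.35 and 7.503. Fubp1, which encodes a DNA-binding regulator of Myc, fell by 2.24, and the actin-severing cofilin gene Cfl1 by 1.95. Hamp, which encodes hepcidin, was above background on no Akti1/2 array and was at least 3.89-fold lower. Actb, a common reference gene, fell by 0.56 (standard error 0.11, adjusted p = 0.00118, limma).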
